A study of Mus musculus with 11 samples.

Results

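CREB is a transcription factor that binds the cyclic AMP response element of target genes and is switched on by phosphorylation downstream of cyclic AMP and calcium. The family measured here holds Creb1, which encodes CREB itself, its close relatives Crem and Atf1, the CRTC coactivators Crtc1, Crtc2 and Crtc3, which enter the nucleus when dephosphorylated, and the paralogous histone acetyltransferases Crebbp (CBP) and Ep300 (p300), which bind phosphorylated CREB. In brain, neurons use this pathway for activity-dependent transcription, and astrocytes have it too. The members were these 8 of 20284 genes with a symbol on the array, taken through all probes whose RefSeq accession belongs to them, 14 of 55681 distinct probes, and each probe is described on its own. The array held 3 probes for Crem, 2 each for Creb1, Atf1, Crtc2 and Crtc3, and 1 each for Crtc1, Crebbp and Ep300. Of the 14, 13 were well above background in all 22 channels. The third Crem probe, A_55_P2044257, which is assigned to another Crem transcript record, was above background in 0 of 22 channels and was not tested.

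Gene expression was measured in right-hemisphere cortex of 22 C57/Bl6J mice, 5 to 7 months old, with 11 2-colour arrays from Agilent (A to F, I to M), with 1 mouse labelled with Cy5 and another with Cy3 on each. TC mice (n = 6) were transgenic and had a cryolesion, and WTC mice (n = 5) were wild type with the same lesion. T mice (n = 5) were transgenic without a lesion, and WT mice (n = 6) were wild type without a lesion. The transgenic mice carried GFA2-tTa and TetO-VP16-CREB, with which the astrocyte-directed GFA2 promoter drives a constitutively active CREB through a tetracycline-controlled activator. Dry ice held to the brain surface for 30 s made the focal lesion, 3 days before the tissue was collected. RNA came from whole tissue, so that more cells of a type and more RNA per cell cannot be told apart.

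TC was paired with WTC on 3 arrays, TC with T on 2, TC with WT on 1, WTC with WT on 2 and T with WT on 3. All WT mice were on slide 1 and all direct TC with WTC arrays on slide 2. Levels are log2 channel values after normalization with the dye effect removed. Log2 ratios are the first-named group minus the second, with their SE, from a limma fit to the ratios of all 11 arrays ("ratio fit", 7 residual degrees of freedom), and adjusted p-values are Benjamini-Hochberg values over 35552 probes. A separate-channel fit, which also uses differences between arrays (17 residual degrees of freedom, 35415 probes), is given where it changes a call. A block fit, added after the data were seen, treats the arrays as random blocks of channels, and was run with slide as a term and, separately, with the TC mouse of array I left out. Called means an adjusted p under 0.05.

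Markers of the labelled tissue were present, and several differed between mice. Mean log2 levels over 10 astrocyte markers lay between 13.30 and 13.74 in TC, 13.44 and 13.67 in WTC, 12.43 and 12.66 in T and 12.28 and 12.64 in WT. Over 8 of 9 microglia and macrophage markers they were 11.32 to 13.50 in TC, 12.75 to 13.54 in WTC, 11.33 to 11.56 in T and 11.20 to 11.68 in WT. The TC mouse of array I stood apart, with 11.32 for microglia where the remaining TC mice had 12.44 to 13.50, and with 9.47 for 8 excitatory neuron markers where they had 11.21 to 12.06. Over 8 striatal neuron markers the mean level was 8.96 to 11.36 in TC, 8.56 to 12.02 in WTC, 8.89 to 11.78 in T and 9.34 to 12.66 in WT. Over 6 choroid plexus and ependyma markers it was 7.98 to 12.78 in TC, 9.49 to 12.92 in WTC, 8.44 to 10.19 in T and 8.08 to 12.79 in WT. The medians were 8.69 in TC, 12.11 in WTC, 9.80 in T and 9.10 in WT. In the ratio fit all 6 were below 0 in TC minus WTC (median log2 ratio -2.27) and above 0 in WTC minus WT (median 2.29). The part of these differences in the results was not tested.

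Some values went against the labels or were unbalanced. Channel 2 labels of arrays I, J and K contradict the titles, which were used. These labels give the Cy3 mouse as T, TC and T, where the titles give TC, T and TC. The Cy3 mouse of array I is the TC mouse that stood apart in its markers. Prm1, a sperm protamine gene, had levels from 10.06 to 13.34 in TC and from 5.65 to 8.0 in WTC, but 6.47 to 11.88 in T and 5.80 to 10.28 in WT, with the WT mice of arrays A and D high and the T mouse of array F low within their groups. The Y-linked gene Ddx3y was low in 1 WTC, 1 T and 2 WT mice, so that arrays E, F, I and M paired mice of unlike Ddx3y level. The same mice were low in Eif2s3y (5.73 to 7.01) and high at Xist probe A_52_P113537 (8.69 to 9.83, against 7.00 or less elsewhere). That is the pattern of female mice, and no TC mouse had it. Fits without arrays A, D and F, and with the Ddx3y ratio of each array as a covariate, were added for this reason.

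Promoter sequences are shown for Crtc3 and Creb1, of which a probe was called in at least 1 of the fits below, and for Atf1, the member whose promoter held a searched motif. They are the 250 bases before the start in the RefSeq promoter table of build GRCm38.p6, read 5′ to 3′ on the gene's strand, which held 6 of the 8 genes, without Crem and Crtc2. They were searched on both strands for the full cyclic AMP response element TGACGTCA, present in 1.55% of 32851 promoters of the same length, and for its core TGACG, present in 17.8% and contained in the full element. Capitals mark the core where it occurs. The Crtc3 promoter is at chr7:80688878-80689127 (minus strand), that of Creb1 at chr1:64532554-64532803 (plus strand) and that of Atf1 at chr15:100227609-100227858 (plus strand).
Crtc3: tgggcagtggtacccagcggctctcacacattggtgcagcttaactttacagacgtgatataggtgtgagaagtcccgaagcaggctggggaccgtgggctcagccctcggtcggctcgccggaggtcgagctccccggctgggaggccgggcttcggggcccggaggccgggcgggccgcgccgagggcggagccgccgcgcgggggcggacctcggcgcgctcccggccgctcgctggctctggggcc
Creb1: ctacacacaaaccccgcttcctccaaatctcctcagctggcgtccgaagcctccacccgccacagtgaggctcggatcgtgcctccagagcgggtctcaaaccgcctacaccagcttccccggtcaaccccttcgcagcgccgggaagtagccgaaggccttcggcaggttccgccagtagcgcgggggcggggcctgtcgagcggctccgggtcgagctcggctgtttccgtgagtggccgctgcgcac
Atf1: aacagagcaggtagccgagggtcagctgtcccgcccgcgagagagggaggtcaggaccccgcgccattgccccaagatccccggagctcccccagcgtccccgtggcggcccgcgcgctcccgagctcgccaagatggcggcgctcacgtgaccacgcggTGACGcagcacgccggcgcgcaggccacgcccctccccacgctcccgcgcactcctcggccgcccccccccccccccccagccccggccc
The full element was in 0 of these 6 promoters, and the core in 1, that of Atf1, 90 bases before its start. By comparison, among 15 CREB target genes with a promoter in the table, 4 (Dusp1, Pcsk1, Scg2 and Sst) held the full element and 14 held the core. A target gene was counted if any of its promoters matched, while the shares of 1.55% and 17.8% are per promoter. These genes were listed because they are known targets, so their counts are a description and no test. A match describes letters and not a bound site, and no match says only that these letters are not in the window.

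The comparison of TC with WTC asked what the transgene changed in lesioned cortex. In the ratio fit 0 of 13 member probes were called, beside 0 (0%) of 35552 probes. At an unadjusted p under 0.05, 2 member probes were higher and 3 lower, and 5319 probes in all (15%) passed this. The median log2 ratio was -0.03 over the members and -0.02 over all probes. The separate-channel fit called 0 members and 40 probes (0.113%), and the TC and WTC levels of all 13 members overlapped, beside 0.378% of probes without overlap. Both Crem probes were on the higher side, and the Crtc3 and Crebbp probes on the lower.

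Crem encodes the cyclic AMP response element modulator, whose shorter products include the repressor ICER made from an internal promoter, and it is itself a known CREB target. At Crem probe A_52_P460957 the level ran from 9.52 over a median of 9.79 to 10.54 in TC, against 9.09, 9.40, 8.85, 9.60 and 9.28 in WTC. TC and WTC overlapped by the TC mouse of array I alone, at 9.52. The other TC mice were all above the highest WTC mouse at 9.60, but the lowest of them, at 9.62, only just. Without the TC mouse of array I, this was the only member probe of 13 whose TC and WTC levels did not overlap, beside 0.522% of all probes. The log2 ratio was 0.59 ± 0.16, a 1.5-fold difference (95% interval 0.23 to 0.95, adjusted p = 0.19 by limma). On the 3 arrays that paired TC with WTC it was 0.77, 0.13 and 0.87, here and below in the order K, L and M. Array M paired mice of unlike Ddx3y level, and the part of this in its value was not tested. With the separate-channel fit it was 0.63 ± 0.15 (adjusted p = 0.085), and in the block fit that left out array I's TC mouse 0.69 ± 0.14 (adjusted p = 0.061). A ratio fit with array weights gave 0.61 ± 0.13 (adjusted p = 0.032 by limma). That fit called 2092 of 35552 probes and 3 of 13 members in TC minus WTC. The authors' deposited table gives 0.78 with an adjusted p of 0.014, where 11.2% of its 59305 rows have an adjusted p under 0.05.

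The other tested Crem probe, A_51_P423976, gave like values. Its level ran from 8.82 over a median of 9.09 to 9.81 in TC, against 8.57, 8.67, 8.27, 9.06 and 8.31 in WTC, and the groups overlapped. The log2 ratio was 0.49 ± 0.18 (adjusted p = 0.28 by limma), and the array values were 0.58, 0.01 and 1.04. The largest was again that of array M, with its mice of unlike Ddx3y level. Leaving out 1 array at a time moved it between 0.29 and 0.68, and the first probe's between 0.49 and 0.77. In the authors' deposited table it is 0.81 with an adjusted p of 0.024. Without arrays A, D and F the ratio was 0.63 ± 0.19 (adjusted p = 0.41 by limma) at the first probe and 0.56 ± 0.22 (0.46) at this one. With the Ddx3y covariate it was 0.71 ± 0.17 (adjusted p = 0.39 by limma) and 0.58 ± 0.21 (0.59), so that neither fit called a Crem probe.

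Crtc3 encodes a CREB coactivator held in the cytoplasm by SIK kinases. At Crtc3 probe A_55_P2066484 the TC level ran from 8.35 over a median of 8.76 to 9.20, against 9.01, 8.86, 9.51, 9.04 and 9.39 in WTC. The groups overlapped, with the TC mice of arrays I and K within the range of WTC. On the 3 arrays with both mice, TC was lower each time, by -0.30, -0.30 and -0.71 as log2 ratios. The value farthest from 0 is that of array M, which paired mice of unlike Ddx3y level. The fitted ratio was -0.41 ± 0.10, a 0.753-fold level (adjusted p = 0.15 by limma). With the separate-channel fit it was -0.38 ± 0.11 (adjusted p = 0.15), and in the block fit with slide as a term -0.43 ± 0.09 (adjusted p = 0.045), where 129 probes (0.364%) and 1 member were called. At Crtc3 probe A_55_P2066478 the ratio was -0.27 ± 0.07 (adjusted p = 0.18), with array values of -0.33, -0.16 and -0.28, so that both probes were lower in TC on each array. With array weights the ratio was -0.37 ± 0.07 (adjusted p = 0.025 by limma) at A_55_P2066484 and -0.28 ± 0.06 (adjusted p = 0.03) at A_55_P2066478. The authors' deposited table gives -0.51 (adjusted p = 0.036) for A_55_P2066484 and -0.20 (adjusted p = 0.26) for the other.

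The Creb1 probes gave smaller ratios. At Creb1 probe A_55_P2114427 the level ran from 7.25 over a median of 8.09 to 8.50 in TC, against 7.75, 7.61, 7.53, 7.89 and 7.27 in WTC. TC mice lay on both sides of the WTC range, and the ratio was 0.25 ± 0.14 (adjusted p = 0.44 by limma), with array values of -0.28, 0.13 and 0.42. The authors' deposited table gives 0.70 with an adjusted p of 0.0099 for this probe. At Creb1 probe A_52_P517730 the ratio was 0.19 ± 0.11 (adjusted p = 0.45), and TC ran from 7.21 to 7.95 against 6.90 to 7.52 in WTC. Where these probes lie with respect to the transgene was not analysed here, so neither checks the labels.

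Among the remaining members, Crebbp was at -0.19 ± 0.07 (adjusted p = 0.28 by limma), with array values of -0.28, -0.22 and -0.22, while its levels were high in both mice of array K (TC 14.65, WTC 14.93) and of array M (TC 14.29, WTC 14.51), against 12.92 to 13.60 in the mice of the other arrays. TC and WTC mice alike were high on these arrays. Arrays K and M held lesioned mice only, so that array and lesion cannot be told apart in these high levels. Crtc1 was at -0.31 ± 0.16 (adjusted p = 0.4), with levels from 12.57 over a median of 12.69 to 13.02 in TC, against 13.72, 13.28, 12.78, 12.59 and 13.00 in WTC. The Atf1 probes were at 0.20 ± 0.13 and -0.03 ± 0.11, the Crtc2 probes at -0.16 ± 0.10 and 0.08 ± 0.08, and Ep300 at -0.06 ± 0.08, with adjusted p-values of 0.48 to 0.92.

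**Figure D1:**
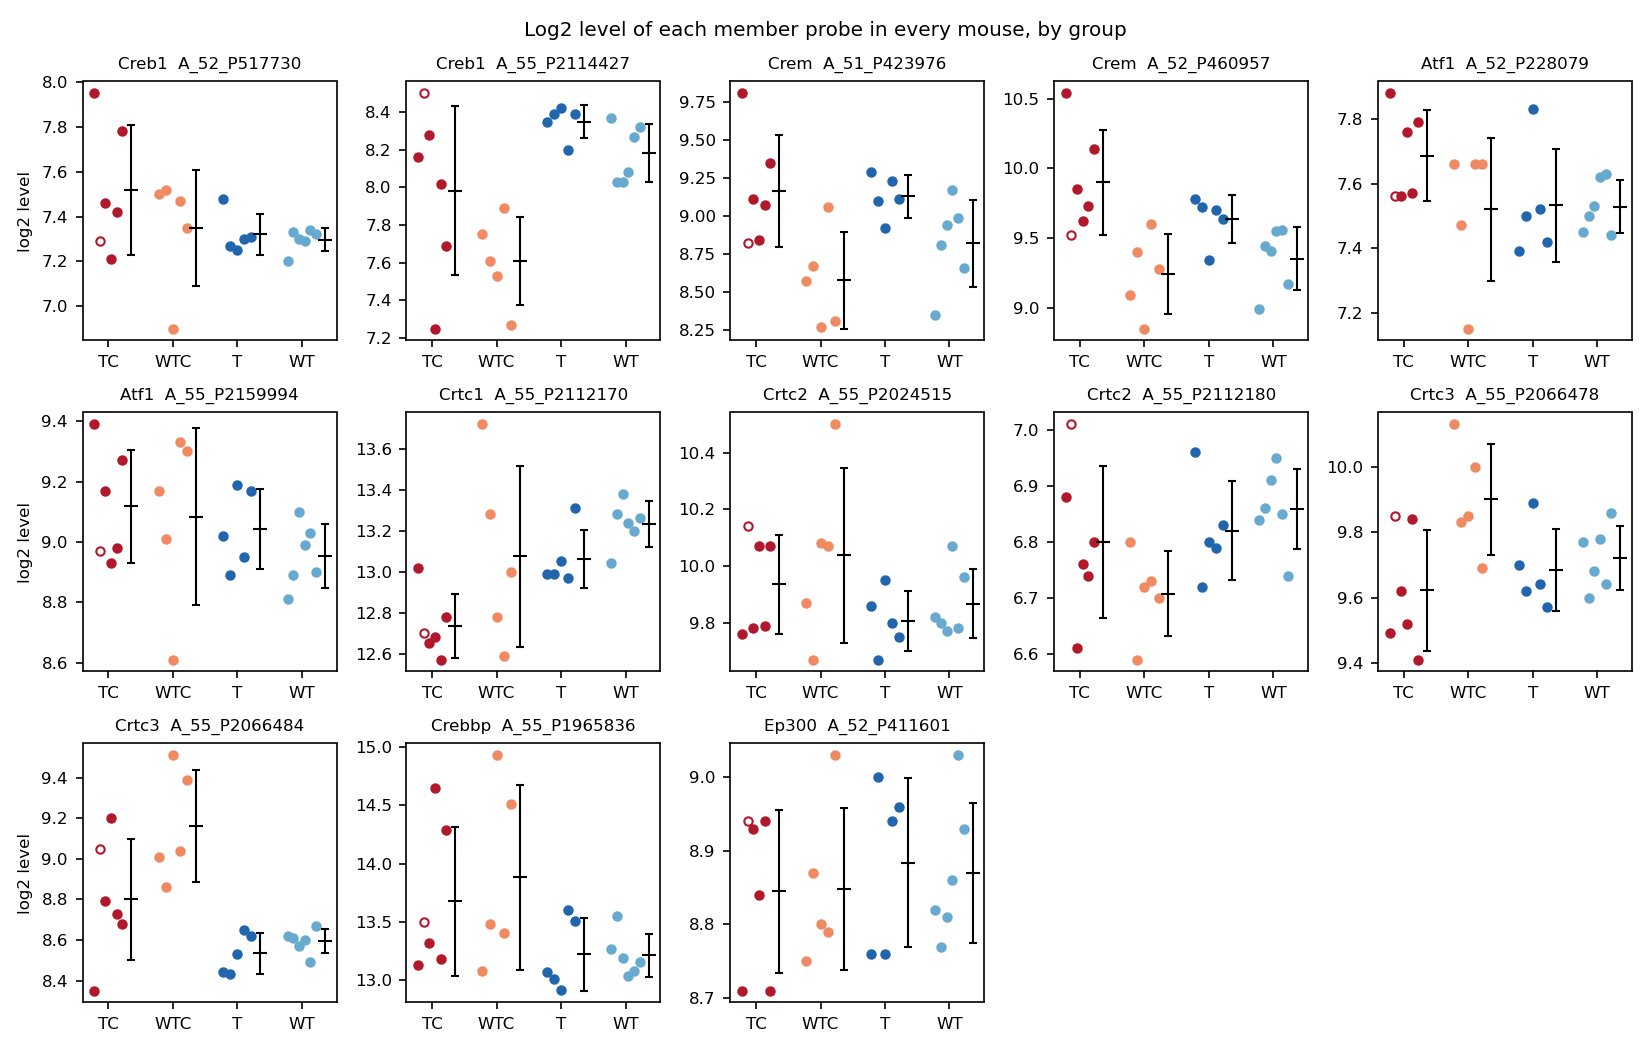
Log2 level of the 13 tested member probes in each mouse (y axis, scale differs between panels), by group (x axis). Points are mice, the open point is the TC mouse of array I, and bars are mean ± SD (n = 6 TC, 5 WTC, 5 T, 6 WT). At Crem probe A_52_P460957 5 of 6 TC mice, the lowest of them at 9.62, sit above the highest WTC mouse at 9.60. At Crtc3 probe A_55_P2066484 all WTC mice sit above the highest WT mouse at 8.67.

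The comparison of T with WT asked what the transgene changed in cortex without a lesion. In the ratio fit 0 of 13 member probes were called, beside 0 (0%) of 35552 probes; 1100 probes (3.09%) had an unadjusted p under 0.05, and 0 of these were members. The separate-channel fit also called 0 probes. No member's T and WT levels were without overlap, beside 0.559% of probes. At Crem probe A_52_P460957 the level was 9.78, 9.72, 9.34, 9.70 and 9.64 in T, against 8.99 over a median of 9.42 to 9.56 in WT, and 4 of the T mice were above the highest WT mouse. The log2 ratio was 0.36 ± 0.16 (adjusted p = 0.97 by limma), and it was 0.23, 0.16 and 0.18 on the 3 arrays that paired T with WT. Crem probe A_51_P423976 gave the ratio 0.36 ± 0.19, with array values of 0.12, 0.11 and 0.26.

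The Creb1 probes gave small ratios in the same comparison. At Creb1 probe A_55_P2114427 the level was 8.35, 8.39, 8.42, 8.20 and 8.39 in T and 8.03 over a median of 8.18 to 8.37 in WT, and the ratio was 0.05 ± 0.14 (95% interval -0.27 to 0.38). At Creb1 probe A_52_P517730 it was 0.14 ± 0.11 (95% interval -0.12 to 0.40). Over the other members the T minus WT ratios lay between -0.20 ± 0.10 (Crtc3 A_55_P2066484) and 0.11 ± 0.11 (Atf1 A_55_P2159994).

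The effect of the transgene after the lesion minus its effect without one, which is the genotype by lesion interaction, was tested as a term. In the ratio fit 0 of 13 member probes and 0 of 35552 probes (0%) were called, with 1917 probes (5.39%) at an unadjusted p under 0.05. The interaction was 0.23 ± 0.21 for Crem A_52_P460957 (adjusted p = 0.84 by limma), 0.13 ± 0.24 for the other Crem probe (0.92), and -0.20 ± 0.09 and -0.21 ± 0.12 for the Crtc3 probes (0.82 each). No difference between the transgene effects could be shown for a member.

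The comparison of WTC with WT gave the lesion effect in wild-type cortex. In the ratio fit 0 of 13 member probes were called, beside 7 (0.0197%) of 35552 probes. At an unadjusted p under 0.05, 2 members were higher and 0 lower, against 6733 probes (18.9%). The separate-channel fit called 2 members, 1 higher and 1 lower, beside 25.1% of probes (13.2% higher and 12% lower), so that 2 of 13 is no excess. The median log2 ratio was 0.04 over the members and 0.00 over all probes.

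Crtc3 probe A_55_P2066484 was 9.01, 8.86, 9.51, 9.04 and 9.39 in WTC, against 8.49 over a median of 8.60 to 8.67 in WT. The groups did not overlap, which held for 1 member higher and 1 lower of 13, beside 8.52% of probes higher and 7.04% lower (15.6% together). The ratio was 0.36 ± 0.11 (adjusted p = 0.14) in the ratio fit and 0.50 ± 0.12 (adjusted p = 0.0051) in the separate-channel fit, and 0.36 ± 0.10 (adjusted p = 0.027) in the block fit with slide as a term, which called 12% of probes. On arrays A and B, within slide 1, it was 0.39 and 0.25. At Crtc3 probe A_55_P2066478 the ratio was 0.27 ± 0.08 (adjusted p = 0.14 by limma) and 0.20 ± 0.08 (adjusted p = 0.083) in the separate-channel fit. Its array values were 0.35 and 0.23, and the groups overlapped.

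Creb1 probe A_55_P2114427 was the member lower in WTC, at 7.75, 7.61, 7.53, 7.89 and 7.27, against 8.03 over a median of 8.18 to 8.37 in WT. The groups did not overlap. The ratio was -0.27 ± 0.16 (adjusted p = 0.39 by limma) in the ratio fit and -0.49 ± 0.15 (adjusted p = 0.027) in the separate-channel fit. In the block fit with slide as a term it was -0.43 ± 0.17 (adjusted p = 0.1), which ended the call. Arrays A and B, within slide 1, gave -0.62 and -0.42. Creb1 probe A_52_P517730, on the same transcript record, gave 0.20 ± 0.13 with array values of 0.30 and 0.19, the opposite sign on both arrays.

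**Figure D2:**
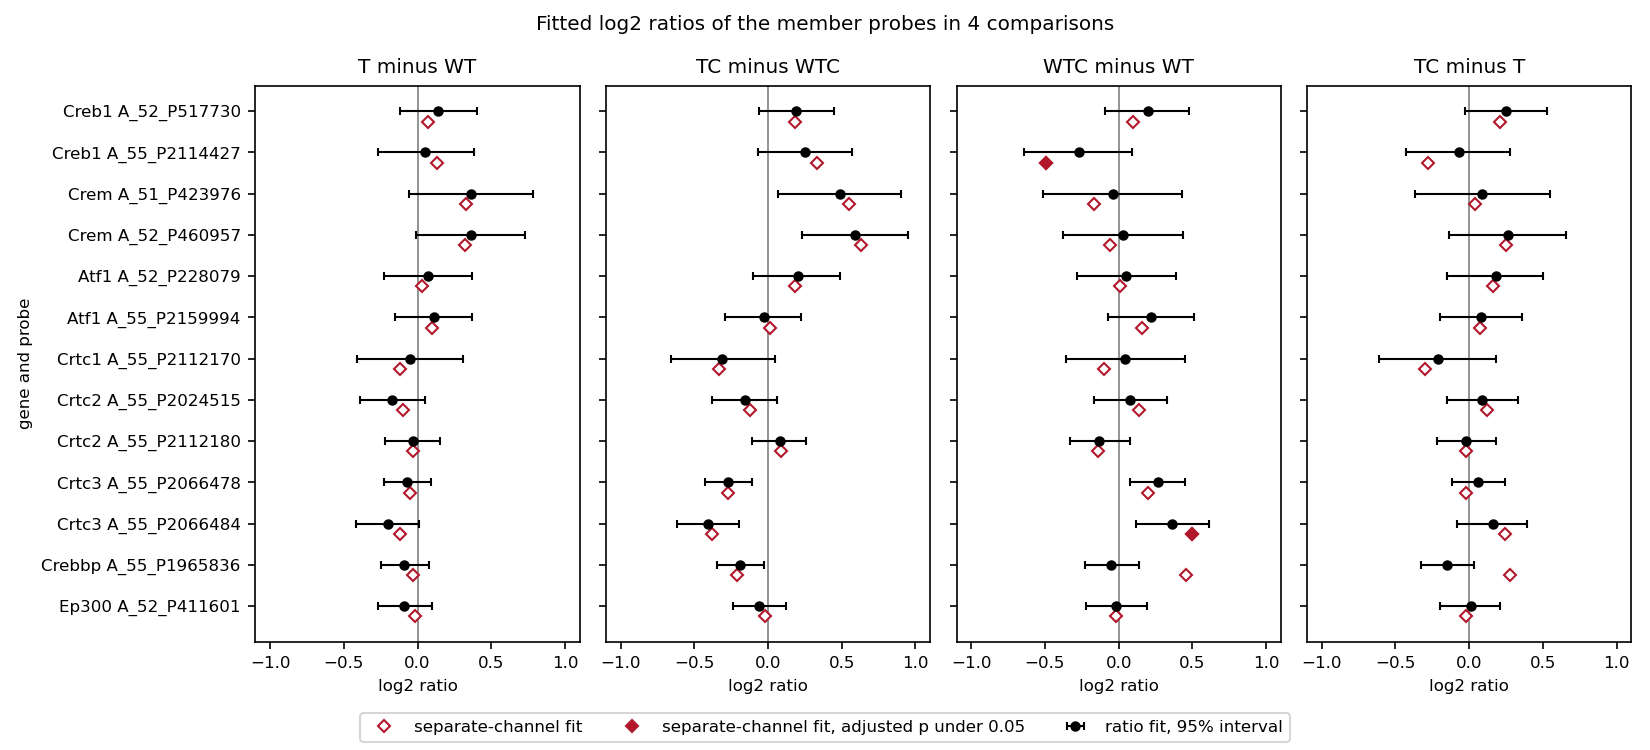
Fitted log2 ratios (x axis) of the 13 tested member probes (y axis) in 4 comparisons, with the ratio fit (black, bars are 95% intervals) and the separate-channel fit (red diamonds, filled where the adjusted p is under 0.05). The filled diamonds are Creb1 A_55_P2114427 at -0.49 and Crtc3 A_55_P2066484 at 0.50 in WTC minus WT.

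The other members had an adjusted p of 0.38 or more in the ratio fit. The Crem probes were at -0.04 ± 0.21 and 0.03 ± 0.18 in the ratio fit. Crtc2 probe A_55_P2112180 was at -0.13 ± 0.09, and at -0.16 ± 0.06 (adjusted p = 0.04) in the block fit that left out array I's TC mouse, which called 30.9% of probes. Atf1 was at 0.05 ± 0.15 and 0.22 ± 0.13, Crtc1 at 0.04 ± 0.18 and Ep300 at -0.02 ± 0.09. Crebbp was at -0.05 ± 0.08 in the ratio fit but at 0.46 ± 0.27 in the separate-channel fit, where the high levels of arrays K and M enter.

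The comparison of TC with T gave the lesion effect in transgenic cortex. In the ratio fit 0 of 13 member probes and 0 (0%) of 35552 probes were called, with 4058 probes (11.4%) at an unadjusted p under 0.05 and 0 members among them. The separate-channel fit called 6.49% of probes and 0 members, and 0 members were without overlap, beside 4.72% of probes. When array I's TC mouse was left out, 0 members and 11.5% of probes were without overlap. Creb1 A_52_P517730 was at 0.25 ± 0.13, with array values of -0.01 and 0.15, and its levels ran from 7.21 to 7.95 in TC and 7.25 to 7.48 in T. Crem A_52_P460957 was at 0.26 ± 0.18, with array values of -0.18 and 0.20, and Crtc3 A_55_P2066484 at 0.16 ± 0.11, with 0.40 and 0.17. The negative Crem value is that of array I, whose TC mouse stands apart in its markers and which paired mice of unlike Ddx3y level. The part of these differences in the value was not tested. Crebbp turned sign between the fits, at -0.15 ± 0.08 in the ratio fit and 0.28 ± 0.26 in the separate-channel fit.

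The probes of a gene were compared over the 11 arrays, as a description, since they share arrays and dyes. The array ratios of the Crem probes correlated at r = 0.95, those of Crtc3 at 0.91 and those of Atf1 at 0.78, with the same sign on 10, 10 and 7 of 11 arrays. Those of Crtc2 correlated at 0.20 and of Creb1 at -0.07, with the same sign on 4 and 3 arrays. Over the levels of the 22 mice the correlations were 0.93 for Crem, 0.73 for Atf1, 0.33 for Crtc3, 0.05 for Crtc2 and 0.01 for Creb1. The Crtc3 probes thus ran together within arrays and less so in levels across arrays. Of the Crtc2 probes, A_55_P2024515 had the brighter signal (mean log2 intensity 9.91) and A_55_P2112180 the dimmer (6.81).

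**Figure D3:**
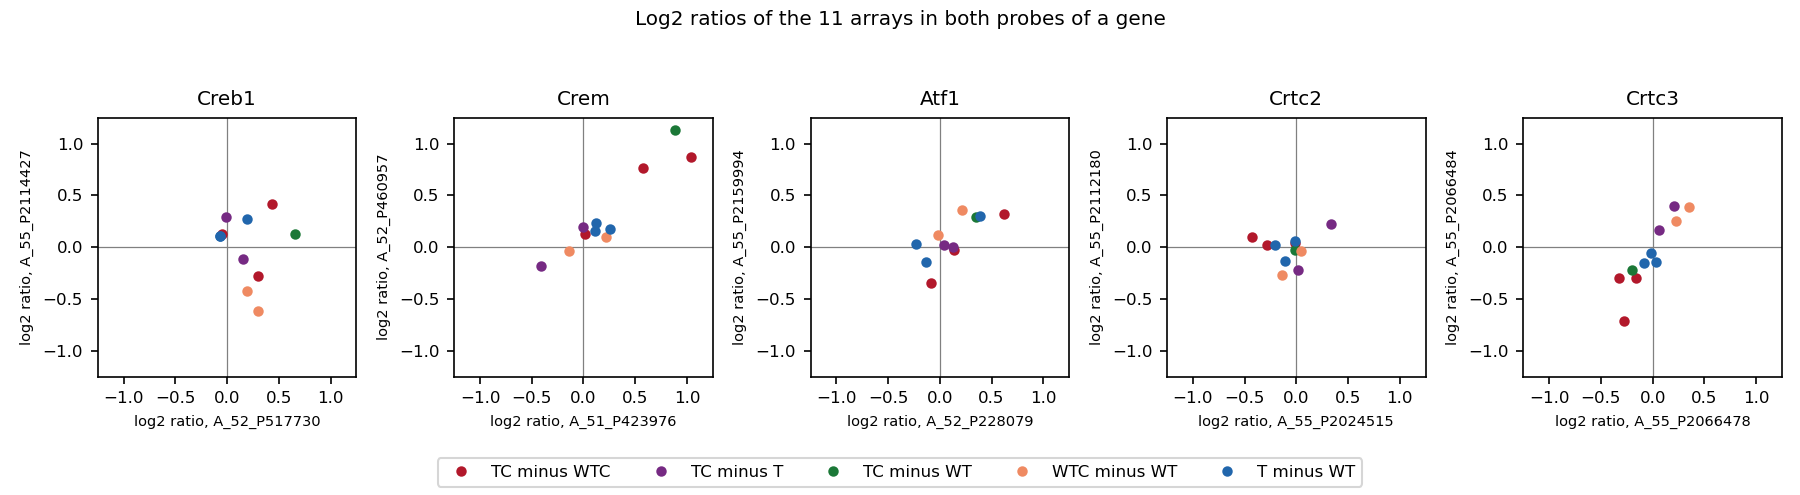
Log2 ratios of the 11 arrays at one probe (x axis) and the other (y axis) of the 5 genes with a pair of tested probes, coloured by the groups paired on the array. The Crem and Crtc3 points lie along a rising line (r = 0.95 and 0.91), and the Creb1 points do not (r = -0.07).

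Over the 22 mice, which include all 4 groups, the genes with the level most like that of Crem A_52_P460957 were Rnft1 (r = 0.87), 4933421O10Rik (0.86), Aqp5 (0.84), Ifrd1 (0.82) and Mamstr (0.82), out of 16011 genes with a symbol. Those most like Creb1 A_55_P2114427 were Fn3k (0.97) and Gpr180, Vti1a, Tchh and Glrb (0.96 each). These are descriptions over mice that share groups and arrays.

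The wider pathway was read from 6 lists, kinases that act on CREB, CRTC regulators, CREB phosphatases, other CREB/ATF factors, CBP and p300 partners and known CREB targets. In the ratio fit 0 genes of any list were called in any comparison, beside the 0% to 0.0197% of probes given above, and the genes named here are among the 4 with the smallest p of their list in that comparison. The separate-channel fit called 0 list genes in TC minus WTC and in T minus WT. In TC minus WTC, 10 of 20 measured CREB targets were above 0, with a median of 0.00 against -0.02 over all genes. Fos, an immediate early transcription factor, was at 1.17 ± 0.28 (adjusted p = 0.16 by limma), Pcsk1, a prohormone protease, at 1.05 ± 0.30 (0.19) and Scg2, a granin, at 0.80 ± 0.25 (0.22), while Penk, the enkephalin precursor, was at -2.92 ± 0.45 (0.13). Penk is abundant in striatum. The striatal markers were 8.96 to 11.36 in TC (median 9.61) and 8.56 to 12.02 in WTC (median 11.26). All 8 of them were below 0 in this comparison, with a median of -1.73, and their part in the Penk value was not tested. Nfil3, a repressor of the bZIP family, was at 0.48 ± 0.12 (0.16), Camk1, a calcium-dependent kinase, at 0.41 ± 0.13 (0.23), and Ppp1cb, a catalytic subunit of protein phosphatase 1, at 0.21 ± 0.06 (0.21).

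In T minus WT, 15 of 20 measured targets were above 0, with a median of 0.20 against 0.00 over all genes, the largest being Fos at 0.99 ± 0.29. Junb was at 0.68 ± 0.22 and Fosb at 0.47 ± 0.14, and Penk at -1.60 ± 0.46, each with an adjusted p of 0.97 by limma. Camk1 was at 0.31 ± 0.13 and Nfil3 at 0.37 ± 0.12. In the same comparison all 8 striatal neuron markers were below 0, with a median of -1.24, and 6 of 8 excitatory neuron markers were above 0, with a median of 0.48. Their part in the values of the targets was not tested.

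In WTC minus WT, the kinase Rps6ka1 (RSK1), which phosphorylates CREB, was at 1.15 ± 0.16 (adjusted p = 0.061 by limma, and 4.4e-05 in the separate-channel fit). The stress-induced repressor Atf3 was at 1.31 ± 0.32 (0.11; 0.0005), Atf5 at 0.94 ± 0.18 (0.097; 0.00064) and the endoplasmic reticulum factor Creb3l1 at 0.76 ± 0.21 (0.13; 0.00085), the second value being that of the separate-channel fit. Among the partners, the deacetylase Hdac1 was at 0.60 ± 0.12 (0.098; 0.00084) and Hdac5 at -0.34 ± 0.10 (0.14; 0.0041). Ppp1cb was at -0.24 ± 0.07 (0.14; 0.0094), and 6 of 7 measured phosphatases were below 0. For CREB targets 7 of 20 were above 0, with Dusp1, a MAP kinase phosphatase, at -0.66 ± 0.19 (0.13; 0.011) and a median of -0.16. The separate-channel fit called 0 targets higher and 5 lower of 20, 0 phosphatases higher and 3 lower of 7, and 4 other CREB/ATF factors higher and 2 lower of 16. It called 2 kinases higher and 1 lower of 19, 0 CRTC regulators higher and 2 lower of 11, and 1 partner higher and 2 lower of 19, beside 13.2% of probes higher and 12% lower. In TC minus T, Rps6ka1 was at 1.08 ± 0.16 (adjusted p = 0.22 by limma, and 0.00041 in the separate-channel fit), Atf3 at 1.31 ± 0.32 (0.28; 0.0019) and Fosb at -0.66 ± 0.15 (0.28; 0.051). In that comparison the separate-channel fit called 2 of 19 kinases and 3 of 16 other CREB/ATF factors higher and 2 of 20 targets lower. It called 0 genes of the other lists, beside 6.49% of probes (4.18% higher and 2.31% lower). Microglial markers were higher in the lesioned groups in the same comparisons, with medians of 1.37 in WTC minus WT and 0.86 in TC minus T over 8 genes, and the part of this in the values was not tested.

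**Figure D4:**
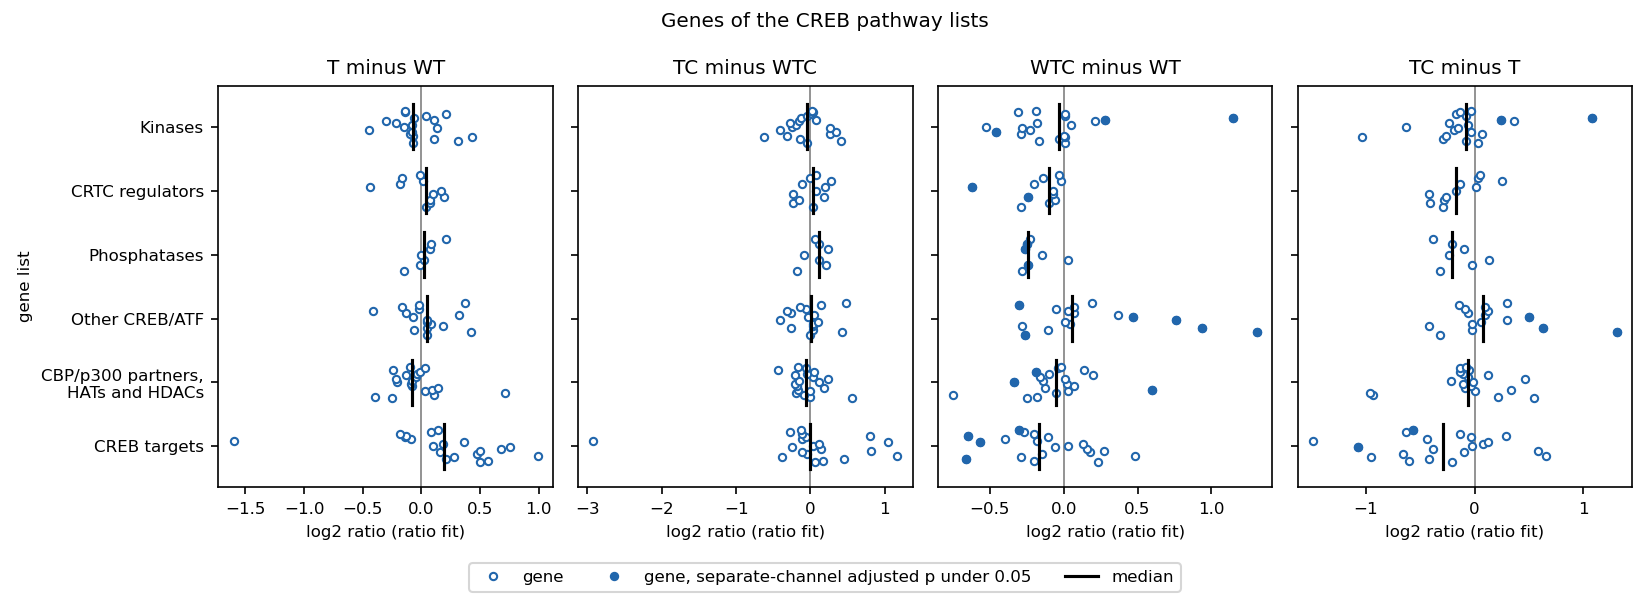
Log2 ratio from the ratio fit (x axis, scale differs between panels) of the measured genes of 6 CREB pathway lists (rows) in 4 comparisons. Points are genes, filled where the separate-channel fit has an adjusted p under 0.05, and black lines are medians. Rps6ka1 at 1.15 and Atf3 at 1.31 are the farthest to the right in WTC minus WT, and Penk at -2.92 is the lowest in TC minus WTC.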

How the data were processed

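The authors deposited Agilent Feature Extraction 10.7.3.1 scanner output, per the file headers, with linear intensity values (median spot and background signals) that are not normalized. The deposited LogRatio (log10 of red over green, per the file headers) served only as an alternative, and other flags of background and outliers as filters. A table deposited by the authors holds log ratios and adjusted p-values from limma, per the file header; limma's version and the log base are not given in the sources used here, and the deposited ratios were read as log2, limma's usual output. P-values for WTC minus WT hold impossible numbers and were not read.

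Background was corrected with normexp (offset 50) and ratios were loess-normalized within arrays in limma 3.58.1 under R 4.3.3. Outlier spots (0.533%) were left out, and 35552 probes passed a filter of 5 or more of 22 channels above background. The number of arrays limits the precision. Accessions gave 26762 probes with 1 symbol. The ratio fit had terms for T, WTC, TC and dye. Labels give each mouse its own number, so p-values measure the spread between these mice. All 8 members were described by probe, up to 4 pathway genes per list and comparison were named by smallest p, and the genes most like Crem and Creb1 were ranked by correlation. Members and lists were chosen with earlier results of these data known. Tested on simulated data of the TC minus WTC comparison (35415 probes), 38% of log2 changes of 0.5 and 82% of changes of 1 were recovered. The simulated noise was drawn for each probe and array on its own. It lacks differences between mice that many probes share, such as those in the markers, so these shares do not give the power in the real data. Alternatives covered background, normalization, filters, dye, slide, array weights, prior, labels, subsets of arrays and separate channels; the random block, slide term, Prm1 and Ddx3y fits were added after the data were seen.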

Additional observations from a re-analysis of the deposited data

Results flagged for a closer look

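Of 52 groups of member probe levels tested for an outlying mouse, 4 had one, and chance gives about 1 in 20. At Creb1 A_52_P517730 the WTC mouse of array K was lowest at 6.90, the nearest being 7.35. At the same probe the T mouse of array D was highest at 7.48, the nearest being 7.31, and the WT mouse of array A was lowest at 7.20, the nearest being 7.29. At Crtc1 A_55_P2112170 the T mouse of array J was highest at 13.31, the nearest being 13.05.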

How the results depend on the processing

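Over 65 probe and comparison values and 31 alternatives, 1838 of 1990 values kept direction and side of the threshold. Another 16 became called, 3 were counted as reversed and the rest changed sign without being counted so. The 3 reversed are Crebbp A_55_P1965836 in TC minus T, at 0.28, 0.29 and 0.33 in separate-channel fits without a slide term. Some of the rest exceeded their SE. Crebbp in WTC minus WT, for example, was at -0.05 ± 0.08 in the ratio fit and 0.46 ± 0.27 in the separate-channel fit. Called member probes were 0 in the ratio fit. With array weights (from 0.41 to 4) they were 3 of 13 in TC minus WTC, beside 2092 of 35552 probes. In WTC minus WT they were 4 of 13, beside 11088 of 35552 probes. The 3 were Crem A_52_P460957 and both Crtc3 probes. The 4 were Creb1 A_55_P2114427, Crtc2 A_55_P2112180 and both Crtc3 probes. With the separate-channel fit they were 2 in WTC minus WT, with array as a random block also 2, and lacking array I's TC mouse 3. These stand beside 8892, 8935 and 10955 of 35415 probes. With slide as a term they were 1 in TC minus WTC, beside 129 probes, and 1 in WTC minus WT, beside 4252. Probes called in TC minus WTC were 0, against 1 with plain subtraction, 3 with the channel 2 labels, 2092 with array weights, 40 with separate channels, 34 with a random block, 55 lacking array I's TC mouse, 129 with slide as a term and 0 to 2 leaving out each array. In WTC minus WT they were 7, against 0 with plain subtraction, median centring, the channel 2 labels or without arrays A, D and F, 1 with the LogRatio or no filter, 57 above background in all 22 channels, 14 with a trended robust prior, 559 with the Ddx3y covariate, 2220 without arrays I, J and K, 4252 with slide as a term, 8892 with separate channels, 8935 with a random block, 10955 lacking array I's TC mouse, 11088 with array weights and 0 to 1881 leaving out each array (1849 without array I, 1881 without array K). In TC minus T they were 0, against 979 with slide as a term, 2262 with a random block, 2297 with separate channels, 3205 with array weights, 4050 lacking array I's TC mouse and 0 to 9 leaving out each array. The genotype by lesion interaction gave 0, and 2 lacking array I's TC mouse. Member probes without overlap in TC minus WTC were 0, and 1 without that mouse. The cause of these shifts was not tested. No paired analysis was possible by replicate number, because these numbers follow accession order; the ratio fit and the within-array ratios use the mice paired on an array.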
